A study of Mus musculus with 27 samples.

Results

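Droplet-based single-nucleus RNA-seq libraries from the hippocampus of tau transgenic mice were compared between animals labelled with no intact copy of Cgas and animals labelled with 1 intact copy. The comparison takes 12 of the 27 libraries of the series, 6 labelled P301S Cgas-/- and 6 labelled P301S Cgas+/-, chosen by the genotype label alone, with 1 library per mouse and 3 males and 3 females in each group. All 12 mice carry the P301S transgene, a human tau cDNA with a dementia-linked mutation under the mouse Prnp promoter, and had passed through behavioural tests. They were 8 to 10 months old, their age being stated as 8 to 9 months for the nuclei and as 9 to 10 months for RNA-seq tissue in general. Both groups derive from crosses of that line with 1 constitutive Cgas knockout strain, so Cgas was altered in every cell of the body and through development. P301S Cgas+/+ libraries (6) and Cgas+/+ libraries without tau (5) serve as reference levels and entered 1 alternative fit of 23 libraries, and the 4 libraries without tau labelled Cgas+/- or Cgas-/- entered no test.

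Cyclic GMP-AMP synthase, the product of Cgas, binds DNA in the cytosol and makes a second messenger that activates STING. STING recruits the kinase TBK1, which activates interferon regulatory factors, and secreted type I interferon then acts through a receptor and transcription factors such as STAT2 and IRF9 on a large set of interferon-stimulated genes. In the brain the sensor is found mainly in microglia, and astrocytes, oligodendrocytes and neurons respond to interferon made by other cells. The question put to the 12 libraries is whether removing the second copy of Cgas, on top of the first, goes with a further difference in any of these cell types in mice with tau pathology.

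After filtering, 87746 nuclei were kept in the 12 libraries, between 5840 and 9528 each, of 204852 in the series. Total UMIs (captured RNA molecules) of the kept nuclei spanned 37.6 M to 51.6 M in P301S Cgas-/- and 39.7 M to 56.6 M in P301S Cgas+/- libraries. The difference in depth did not pass an exact two-sided permutation test over all assignments of the libraries to the groups (adjusted p = 0.788 for total UMIs). Nuclei were grouped into clusters named by marker genes, so "microglia" below means microglia-like nuclei, and likewise for each other class. Microglia comprised 2530 nuclei in P301S Cgas-/- and 2277 in P301S Cgas+/- libraries, astrocytes 5247 and 5329, oligodendrocytes 11669 and 10050, oligodendrocyte progenitors 1344 and 1145, inhibitory neurons 2893 and 3630, and excitatory neurons 16603 and 17594. In 19 classes compared, no difference in the share of nuclei passed the test (smallest adjusted exact permutation p = 0.761). Among the glia the smallest p values were those of oligodendrocytes, at 26.9 ± 3.04% (SD, n = 6) of nuclei in P301S Cgas-/- against 23.2 ± 4.30% (n = 6) in P301S Cgas+/- libraries (exact p = 0.126), and of their progenitors, at 3.12 ± 0.431% against 2.61 ± 0.593% (exact p = 0.126). Microglia made up 5.90 ± 2.08% against 5.39 ± 2.04% and astrocytes 12.1 ± 2.97% against 12.1 ± 3.0%.

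The makeup of single libraries varied within both groups. P301S Cgas+/- replicate 1 held 1258 striatal neuron-like nuclei, 14.6% of its total, and only 35 dentate granule nuclei, and P301S Cgas-/- replicate 2 held 16 dentate granule nuclei. Cortical excitatory neurons made up 26.7 to 59.8% of excitatory nuclei in P301S Cgas-/- and 22.9 to 84.8% in P301S Cgas+/- libraries. CA2 or CA3 neurons numbered 1 to 98 and 0 to 228 per library and were not tested. Summed counts of a whole class cannot tell a change in RNA per cell from a change in the mix of cells within the class.

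The targeted gene was examined first. Cgas (ENSMUSG00000032344, listed in the files by an older symbol, chromosome 9, 78430526 to 78443237, minus strand, GRCm38) was measured in microglia in counts-per-million of the class total (CPM). Its level lay between 39.1 and 57.6 CPM, with a median of 52.6, in libraries labelled P301S Cgas-/-, and between 28.2 and 59.5 CPM, with a median of 43.7, in those labelled P301S Cgas+/-. The groups overlapped, and 5 of the 6 P301S Cgas-/- libraries stood above the P301S Cgas+/- median. The log2 fold change, here and below P301S Cgas-/- over P301S Cgas+/-, was 0.28 ± 0.19 (SE), with a 95% interval of -0.13 to 0.68. On log2(CPM + 1) levels the difference of 0.298 did not pass an exact two-sided permutation test (p = 0.128, adjusted over 8 single-gene tests 0.727). The estimate for Cgas RNA was thus above 0 in the comparison of the homozygous with the heterozygous label. The exons removed in the knockout are not given in the sources used here, and 3′ reads outside a deleted part check nothing, so directions below rest on the labels. In cortical excitatory neurons, where Cgas was near the limit of detection at 0.417 to 2.31 CPM, the log2 fold change was -0.72 ± 0.31 (95% interval -1.38 to -0.06). Across all excitatory neurons it was -0.42 ± 0.23.

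**Figure D1:**
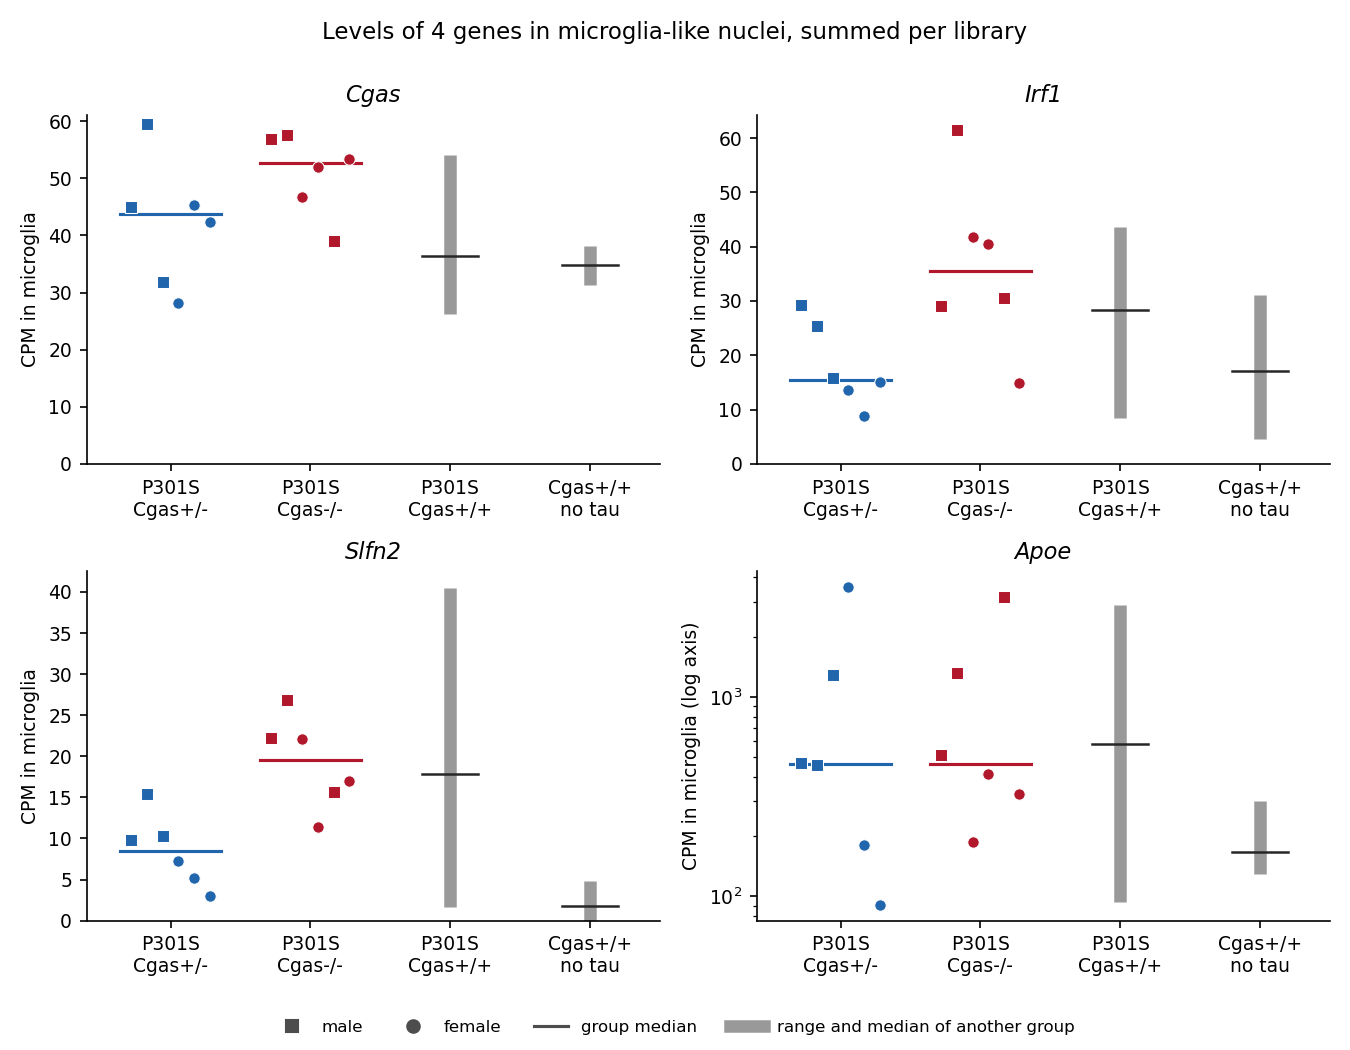
Counts-per-million (CPM, y axis; logarithmic for Apoe) of 4 genes in microglia-like nuclei summed per library, by genotype label (x axis), with squares for males, circles for females, coloured lines for medians and grey bars for the range of a reference group. Irf1 had a median of 35.5 CPM in P301S Cgas-/- and 15.5 CPM in P301S Cgas+/- libraries, while Apoe spanned 187 to 3190 and 90.8 to 3570 CPM.

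The flanks of a targeted locus can derive from another strain than the rest of the genome, so the genes near Cgas were read as a group. Of 104 annotated genes that start within 5 Mb of Cgas, 24 were tested in microglia, and 12 were higher and 12 lower. Tmem30a, a flippase subunit gene, had the smallest p there, with a log2 fold change of 0.40 ± 0.18 (95% interval 0.02 to 0.77). In excitatory neurons 26 of 59 neighbours were higher, with a median of -0.02, in astrocytes 20 of 38 (median 0.02), in oligodendrocytes 14 of 36 (median -0.03), in their progenitors 15 of 29, and in inhibitory neurons 15 of 38. In CA1 24 of 39 were higher, in cortical excitatory neurons 16 of 48 and in dentate granule neurons 19 of 38. In astrocytes Lrrc1 stood at -0.32 ± 0.11 and Gm46123 at 0.27 ± 0.12, and in progenitors Fam214a at -0.32 ± 0.13. Nnt, a mitochondrial transhydrogenase gene that differs between C57BL/6 substrains, had too few UMIs for a test, with 7 UMIs over the P301S Cgas-/- and 9 over the P301S Cgas+/- libraries. Transcripts that mark the transgene (Prnp, the gene whose promoter drives it, with Prn and 3 little-known transcripts that earlier results of these libraries had linked to it) were read in excitatory neurons. Their mean log2(CPM + 1) was 1.3 to 2.23 in P301S Cgas-/- and 1.39 to 2.24 in P301S Cgas+/- libraries, against 0.214 to 0.307 in Cgas+/+ libraries without tau. As the 3 little-known transcripts were picked from these same libraries, this separation is no independent check of the tau label. Of the transgene-marking list, 2 of 4 members tested were higher in excitatory neurons, 0 of 3 in cortical excitatory neurons, 1 of 1 in inhibitory neurons, and 1 of 2 each in oligodendrocytes, CA1 and dentate granule neurons.

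No gene was called between the 2 groups in any class. The quasi-likelihood test of edgeR called 0 of 8508 genes in microglia (0.0%), 0 of 12089 in astrocytes (0.0%), 0 of 11839 in oligodendrocytes (0.0%), 0 of 7767 in progenitors (0.0%), 0 of 12137 in inhibitory neurons (0.0%) and 0 of 15806 in excitatory neurons (0.0%). Among excitatory subclasses it called 0 of 11331 in CA1 (0.0%), 0 of 14171 in cortical excitatory (0.0%) and 0 of 12016 in dentate granule neurons (0.0%), the last over 11 libraries. The smallest Benjamini-Hochberg adjusted p was 1.0 in each class, and DESeq2 also called 0 genes in each. An unadjusted p under 0.05 was reached by 157 genes in microglia (1.85% of those tested), 165 in astrocytes (1.36%), 177 in oligodendrocytes (1.5%), 182 in progenitors (2.34%), 181 in inhibitory (1.49%) and 133 in excitatory neurons (0.841%). It was reached by 110 genes in CA1 (0.971%), 112 in cortical excitatory (0.79%) and 214 in dentate granule neurons (1.78%). In each class the share lay below the 0.05 that evenly spread p values would give, and the reason was not tested. The counts moved by more than 1.5 times when single libraries were left out. They became 246 in microglia without P301S Cgas+/- replicate 2 and 325 without replicate 4, and 269 in astrocytes without P301S Cgas-/- replicate 5. In excitatory neurons they were 206, 237 and 237 without P301S Cgas-/- replicates 1, 3 or 6, and in inhibitory neurons 306 without the last of these. In CA1 the count was 402 without P301S Cgas-/- replicate 6, which had 26.9% of its CA1 nuclei in the cluster that held most of them in the other 5 libraries of its group and 49.6% in another, and 167 without P301S Cgas+/- replicate 2. Cortical excitatory neurons gave 182 without P301S Cgas-/- replicate 6, and dentate granule neurons 462, 372 and 119 without P301S Cgas-/- replicates 1, 3 or 4. DESeq2 gave 117, 119, 147, 96, 154 and 146 such genes in the first 6 classes and 107, 99 and 191 in the excitatory subclasses. Without the filter on low counts, edgeR called 15 genes in microglia, 1 in progenitors (Gm30382, 1.76) and 48 in dentate granule neurons, of which 10, 0 and 45 were also in the filtered tests, at unadjusted p values there of up to 0.507 in microglia and 0.497 in dentate granule neurons.

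The data bound most differences, with intervals that hold for 1 gene at a time and are not adjusted for the number of genes. The 95% interval of the log2 fold change lay within ±1 for 90.6% of the genes tested in microglia, 92.8% in astrocytes, 94.2% in oligodendrocytes, 96.1% in progenitors, 94.1% in inhibitory and 91.3% in excitatory neurons, and for 87.0% in CA1, 90.9% in cortical excitatory and 90.2% in dentate granule neurons. The median SE ran from 0.156 in inhibitory neurons to 0.21 in microglia, which held 0.33 M to 1.28 M UMIs per library. The share of genes with a log2 fold change above 0 was 48.6% in microglia, 48.0% in astrocytes, 48.3% in oligodendrocytes, 48.9% in progenitors, 48.8% in inhibitory and 48.5% in excitatory neurons, and 53.6%, 52.6% and 53.1% in CA1, cortical excitatory and dentate granule neurons. These shares are the background for the counts of list members below. Of 102 lists by class with 5 or more tested members, 76 had a median that changed sign when a single library was left out, 8 of them among the 27 whose median lay 0.1 or more from 0. A test of whether the difference itself differed between males and females also called 0 genes in each class (unadjusted p under 0.05 for 79 to 425 genes), with 3 mice of each sex per group. In dentate granule neurons P301S Cgas-/- replicate 2, a male, was left out of it. Without the filter that test called 4 genes in microglia, 4 in progenitors, 5 in inhibitory and 36 in dentate granule neurons. Within males edgeR called 0 genes in each class. Within females it called 2610035D17Rik in microglia (2.42, adjusted p = 0.0244, and 0.60 over all 12 libraries), Cfap54 (1.70, adjusted p = 0.0267) and Mgat4c (0.92, adjusted p = 0.0382) in progenitors, and Gm12576 in excitatory, cortical excitatory and dentate granule neurons (adjusted p = 0.000419, 0.0164 and 0.0312).

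Microglia, the resident macrophages of the brain, switch between a homeostatic and a disease-associated program. The genes with the smallest p were Pink1, Irf1 and Slfn2, with log2 fold changes close to 1 and no call. Irf1, a transcription factor gene induced by interferon, lay between 14.9 and 61.5 CPM (median 35.5) in P301S Cgas-/- and between 8.74 and 29.3 CPM (median 15.5) in P301S Cgas+/- libraries. The groups overlapped, since P301S Cgas-/- replicates 1 and 6 sat below the highest P301S Cgas+/- library, and the log2 fold change was 1.04 ± 0.28 (95% interval 0.44 to 1.64, adjusted p = 1.0 by edgeR). Slfn2, an interferon-induced gene of the Schlafen family, lay between 11.4 and 26.9 CPM (median 19.6) against 3.03 and 15.4 CPM (median 8.53). Pink1, which encodes a kinase that marks damaged mitochondria for removal, lay between 13.8 and 27.7 CPM (median 17.0) against 5.51 and 18.2 CPM (median 7.66). The log2 fold changes were 1.02 ± 0.28 (95% interval 0.42 to 1.62) and 1.03 ± 0.26 (0.48 to 1.58). The groups overlapped for both genes, with all P301S Cgas+/- libraries below the P301S Cgas-/- median for Slfn2 and all but replicate 6 for Pink1. These are 3 genes out of 157 with an unadjusted p under 0.05 and were picked for their small p.

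The interferon-stimulated list held 60 genes, of which 38 passed the filter in microglia. None was called, 35 of the 38 were higher in P301S Cgas-/- libraries (48.6% over all genes tested), and their median log2 fold change was 0.38 against -0.01 over all genes. All members are read from the same 12 libraries, so the count of 35 is not 35 separate observations. An unadjusted p under 0.05 was reached by 4 members, all higher, namely Slfn2, Dtx3l (0.67 ± 0.24), B2m (0.64 ± 0.23) and Psmb9 (0.84 ± 0.34). B2m encodes the light chain of MHC class I molecules and Psmb9 a subunit of the immunoproteasome, which makes the peptides they present. The members of highest level, Trim30a and Rnf213, differed less. Trim30a lay between 215 and 479 CPM (median 319) against 124 and 554 CPM (median 251), and Rnf213 between 198 and 429 CPM (median 256) against 99.6 and 414 CPM (median 209). The groups overlapped for both, with log2 fold changes of 0.34 ± 0.28 and 0.38 ± 0.28.

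The median of the interferon list moved with single libraries and with sex. It was 0.17 without P301S Cgas-/- replicate 3, or 0.55 without P301S Cgas+/- replicate 2, and it was 0.10 among males and 0.86 among females. Whether a list's median differed between the sexes was not tested, here or for the lists below. All females but not all males had the later Cell Ranger version in the matrix header, so sex and version were partly confounded. Expressed as the mean log2(CPM + 1) of the 38 members, the P301S Cgas-/- libraries stood at 5.73, 6.54, 6.54, 5.36, 5.72 and 5.04 and the P301S Cgas+/- libraries at 5.93, 6.32, 5.49, 5.48, 4.31 and 4.01 (replicates 1 to 6 of each). The last 2 of these, replicates 5 and 6 of P301S Cgas+/-, both female, sat within the 3.86 to 4.53 of Cgas+/+ libraries without tau. The other 10 libraries lay above that range, and P301S Cgas+/+ libraries spanned 4.02 to 6.64. The medians of the 2 groups were 5.73 and 5.49. Replicates 5 and 6 of P301S Cgas+/- had transgene-marking transcripts at 1.39 and 1.75 in excitatory neurons. For the reactive astrocyte list they stood at 3.63 and 3.62, within the 3.18 to 3.82 of Cgas+/+ libraries without tau. For the reactive oligodendrocyte list they stood at 3.02 and 3.14, within 2.72 to 3.27. For disease-associated microglia genes they stood at 4.99 and 3.96, against 4.09 to 4.83. No fit left out both libraries. RNA of other cells was present in microglia, with overlapping ranges in the 2 groups. Markers of oligodendrocytes summed to 417 to 588 CPM in P301S Cgas-/- and 297 to 641 CPM in P301S Cgas+/- libraries (all 8 above 0 in every library), and those of astrocytes to 413 to 601 and 483 to 730 CPM, beside 7660 to 9990 and 7320 to 10500 CPM of microglial markers. The 6 macrophage markers summed to 6.39 to 117 CPM (median 29.8) in P301S Cgas-/- and 6.06 to 112 CPM (median 76.7) in P301S Cgas+/- libraries, with Lyve1 at 0 in all 12, and the 6 T cell markers to 0 to 9.69 CPM and 2.81 to 13.7 CPM, with Cd3e and Cd3g at 0. Their part in the result was not tested.

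**Figure D2:**
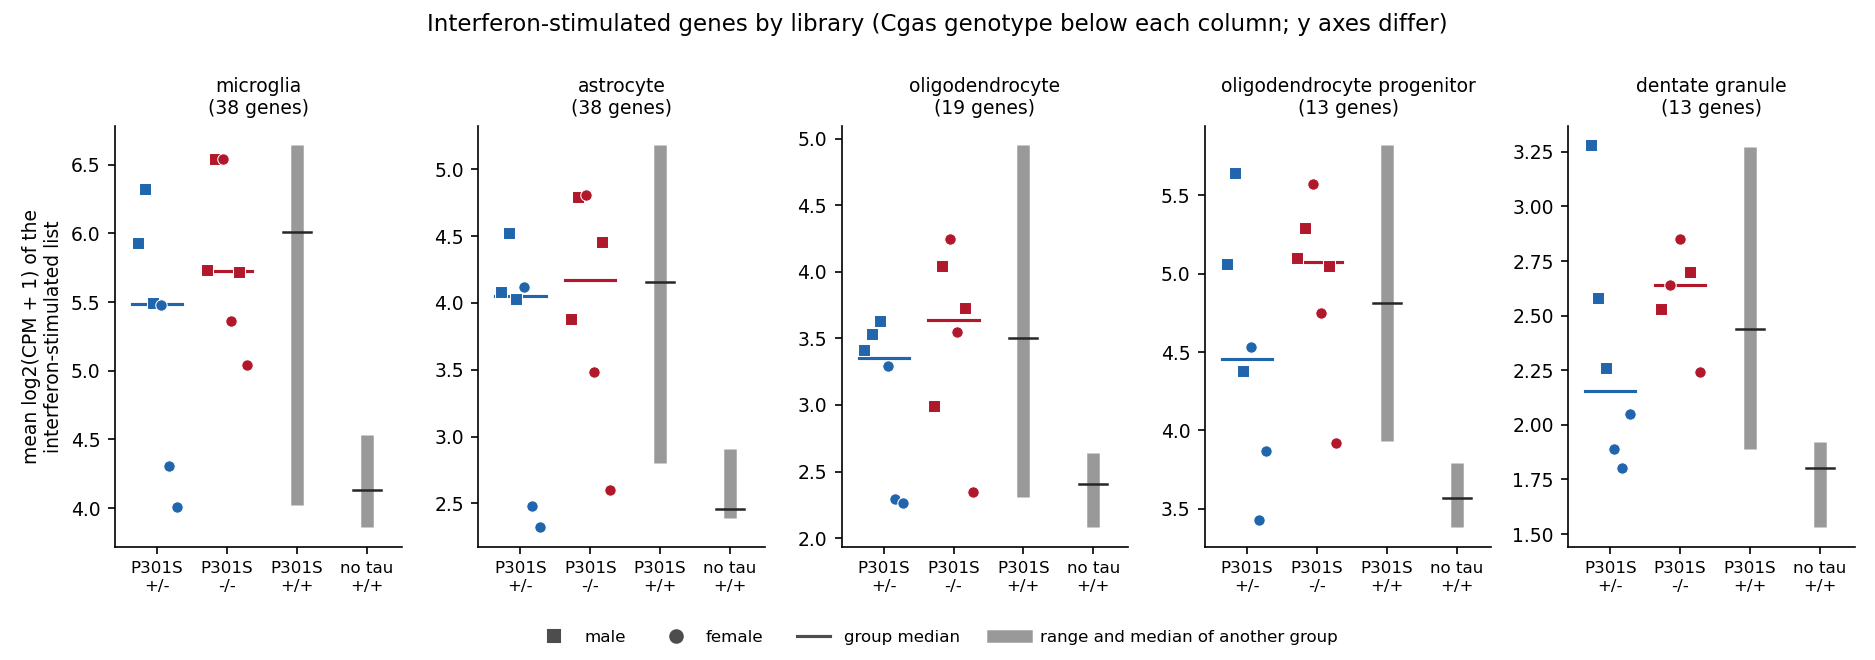
Mean log2(CPM + 1) of the tested interferon-stimulated genes (y axis; axes differ) per library in 5 classes, by tau status and Cgas genotype label (x axis), with squares for males, circles for females, coloured lines for medians and grey bars for the range of reference groups. The groups overlapped in each class, and P301S Cgas+/- replicates 5 and 6 lay at 4.31 and 4.01 in microglia, within the 3.86 to 4.53 of Cgas+/+ libraries without tau.

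In microglia the RNA of the sensing machinery showed no common direction between the groups. Of 15 genes of the nucleic acid sensing list that passed the filter, 8 were higher, 0 had an unadjusted p under 0.05 and the median log2 fold change was 0.00. Sting1, the adaptor downstream of the cGAS product, lay between 14.9 and 44.2 CPM (median 29.7) in P301S Cgas-/- and 15.1 and 47.2 CPM (median 31.6) in P301S Cgas+/- libraries, which overlapped almost fully (log2 fold change -0.14 ± 0.25). Tbk1, the kinase that STING recruits, stood at 0.15 ± 0.13 with a 95% interval of -0.12 to 0.42, and Tlr7, an endosomal RNA sensor, at -0.06 ± 0.13 with an interval of -0.35 to 0.22.

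Disease-associated microglia genes, which rise around plaques and degenerating neurons, spread widely within both groups. Of 20 tested members, 10 were higher and 0 reached an unadjusted p under 0.05, and the median of -0.01 became 0.41 without P301S Cgas+/- replicate 4, or -0.16 without P301S Cgas+/- replicate 6. It was 0.27 among males (16 of 20 higher) and -0.25 among females (3 of 20). Without the 2 libraries that stood apart in makeup (P301S Cgas+/- replicate 1 and P301S Cgas-/- replicate 2) it was -0.14, and 2 members were higher. The mean log2 level of the list ran from 5.48 to 7.15 in P301S Cgas-/- libraries and from 3.96 to 7.56 in P301S Cgas+/- libraries, against 4.09 to 4.83 in Cgas+/+ libraries without tau. Apoe, a lipid carrier gene that leads this program, was at 187 to 3190 CPM (median 462) and at 90.8 to 3570 CPM (median 462). With equal medians and a range of more than 10-fold within each group, its log2 fold change was -0.42 with a 95% interval of -2.92 to 2.09, and it was 1.16 without P301S Cgas+/- replicate 4. The difference in mean log2(CPM + 1) had the other sign, at 0.29, with an exact permutation p of 0.766. Cst7, a cystatin gene of the same program, lay at 2.77 to 20.3 CPM (median 6.72) and 0 to 35.5 CPM (median 19.1), and Igf1, a growth factor gene, at 10.7 to 79.0 CPM (median 20.5) and 0 to 173 CPM (median 20.7). Their log2 fold changes were -0.96 ± 0.58 and -1.08 ± 0.91.

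Of 15 homeostatic genes, 7 were higher, the median log2 fold change was -0.01, and 14 had a 95% interval within ±1. The count ran from 1 to 12 of 15 when single libraries were left out, with a median of -0.11 without P301S Cgas+/- replicate 4, or 0.13 without P301S Cgas+/- replicate 5. Among males 2 were higher (median -0.09) and among females 10 (median 0.23). Csf1r, the receptor that microglia need for survival, lay between 895 and 1390 CPM (median 1140) and between 852 and 1350 CPM (median 1030). The groups overlapped almost fully, with a log2 fold change of 0.10 ± 0.11, and Serinc3 was at -0.10 ± 0.16. Among 8 heat shock and unfolded protein genes 4 were higher (median 0.03), and the chaperone gene Hspa8 had the smallest p, at 0.77 ± 0.25 (95% interval 0.25 to 1.3), ahead of Atf4 at 0.46 ± 0.28. Of 6 glucocorticoid-responsive genes 3 were higher (median -0.07), with Fkbp5 at -0.68 ± 0.46 and Sgk1 at -0.21 ± 0.18. For Fkbp5, P301S Cgas+/- replicate 6 stood at 1140 CPM and the other 11 libraries at 134 to 345 CPM, and without that library the log2 fold change was -0.04. Circadian clock genes were even, with 6 of 10 higher (median 0.03). Myelin genes, which microglia do not make, were higher in 9 of 9 cases with a median of 0.30, led by Cnp (0.86 ± 0.32) and Mog (0.62 ± 0.27). Whether RNA of other cells has a part in the other microglial values was not tested.

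Astrocytes take up glutamate, buffer potassium and respond to injury with a reactive program. The 3 genes with the smallest p were Rps6 (0.83 ± 0.24, 95% interval 0.31 to 1.34), a ribosomal protein gene, Zic1 (-1.47 ± 0.43, 95% interval -2.39 to -0.55), a transcription factor gene of ventral and midline forebrain, and Fth1 (0.52 ± 0.16, 95% interval 0.18 to 0.85), the ferritin heavy chain gene. Zic1 was low, at 0.359 to 4.73 CPM (median 2.58) in P301S Cgas-/- and 2.57 to 20.1 CPM (median 4.02) in P301S Cgas+/- libraries. The highest of these was P301S Cgas+/- replicate 1, which had the most striatal neuron-like nuclei, and without it the log2 fold change was -1.03. Striatal neuron markers in astrocytes summed to 187 CPM in that library, and were highest in P301S Cgas+/- replicate 4, at 483 CPM. An unadjusted p under 0.05 was reached by 165 genes, 80 higher and 85 lower.

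All 38 interferon-stimulated genes tested in astrocytes were higher in P301S Cgas-/- libraries (48.0% over all genes), with a median log2 fold change of 0.40, but 0 of them reached an unadjusted p under 0.05. Cmpk2 was at 0.78 ± 0.38, Ifih1, a sensor of double-stranded RNA, at 0.53 ± 0.28, Rnf213 at 0.46 ± 0.29 and Herc6 at 0.25 ± 0.20. Per library the list mean was 3.88, 4.79, 4.81, 3.48, 4.46 and 2.60 in P301S Cgas-/- and 4.08, 4.52, 4.03, 4.12, 2.48 and 2.32 in P301S Cgas+/- replicates 1 to 6, with Cgas+/+ libraries without tau at 2.39 to 2.91. The group medians of 4.17 and 4.06 lay close together, and the low values came from P301S Cgas-/- replicate 6 and P301S Cgas+/- replicates 5 and 6. The median log2 fold change was 0.10 without P301S Cgas-/- replicate 3, or 0.62 without P301S Cgas+/- replicate 4, and 0.15 among males against 0.70 among females. Microglial markers in astrocytes summed to 49.9 to 69.6 CPM in P301S Cgas-/- and 60.4 to 68.1 CPM in P301S Cgas+/- libraries, beside 15700 to 19600 and 15300 to 18400 CPM of astrocyte markers.

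The reactive astrocyte list had a median log2 fold change below 0, without a call. Per library the list mean was 5.07, 5.68, 4.12, 4.26, 6.11 and 4.03 in P301S Cgas-/- and 4.78, 5.29, 6.40, 6.05, 3.63 and 3.62 in P301S Cgas+/- replicates 1 to 6. P301S Cgas+/- replicates 5 and 6 were thus the lowest for this list as for the interferon list. Of 12 tested members 1 was higher and 0 reached an unadjusted p under 0.05, with a median of -0.26, which became 0.21 without P301S Cgas+/- replicate 4, -0.52 when P301S Cgas-/- replicate 5 was left out and 0.09 with depth as a covariate, and -0.51 without the 2 libraries that stood apart in makeup. It was 0.12 among males, with 7 of 12 higher, and -1.0 among females, with 1 of 12 higher. Gfap, the intermediate filament gene that marks reactive astrocytes, lay between 165 and 656 CPM (median 382) in P301S Cgas-/- and between 96.8 and 1140 CPM (median 436) in P301S Cgas+/- libraries. Both the highest and the lowest library were P301S Cgas+/-, and the log2 fold change of -0.64 ± 0.57 had a 95% interval of -1.88 to 0.61 and became 0.18 without P301S Cgas+/- replicate 4. Serpina3n, a protease inhibitor gene, lay at 1.08 to 31.3 CPM (median 8.60) and 1.80 to 49.6 CPM (median 16.7), for a log2 fold change of -0.80 ± 0.70, and C4b, of the complement cascade, was at -0.23 ± 0.41.

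Genes for transport and coupling differed little. Of 13 members 7 were higher, the median was 0.03 and all 13 had a 95% interval within ±1. Slc1a2, the main glutamate transporter of the forebrain, lay between 7490 and 12600 CPM (median 10400) and between 6920 and 11800 CPM (median 9110), which overlapped almost fully. Its log2 fold change was 0.13 ± 0.14, while Slc1a3, another glutamate transporter gene, stood at -0.03 ± 0.091, the potassium channel gene Kcnj10 at 0.18 ± 0.10 and the gap junction gene Gja1 at 0.17 ± 0.13. Apoe was at 0.26 ± 0.21 in astrocytes, its main source in the healthy brain. Of 9 glucocorticoid-responsive genes 5 were higher (median 0.03), with Fkbp5 at -1.0 ± 0.64 and at -0.16 without P301S Cgas+/- replicate 6, and 8 of 15 clock genes were higher (median 0.04). Of 9 heat shock genes 4 were higher, with Hspa8 at 0.39 ± 0.18 (95% interval 0.01 to 0.76). Myelin RNA was higher in 12 of 12 cases in astrocytes too, with a median of 0.32 and Cldn11 at 0.53 ± 0.24. Oligodendrocyte markers summed to 148 to 261 CPM in P301S Cgas-/- and 134 to 171 CPM in P301S Cgas+/- libraries.

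**Figure D3:**
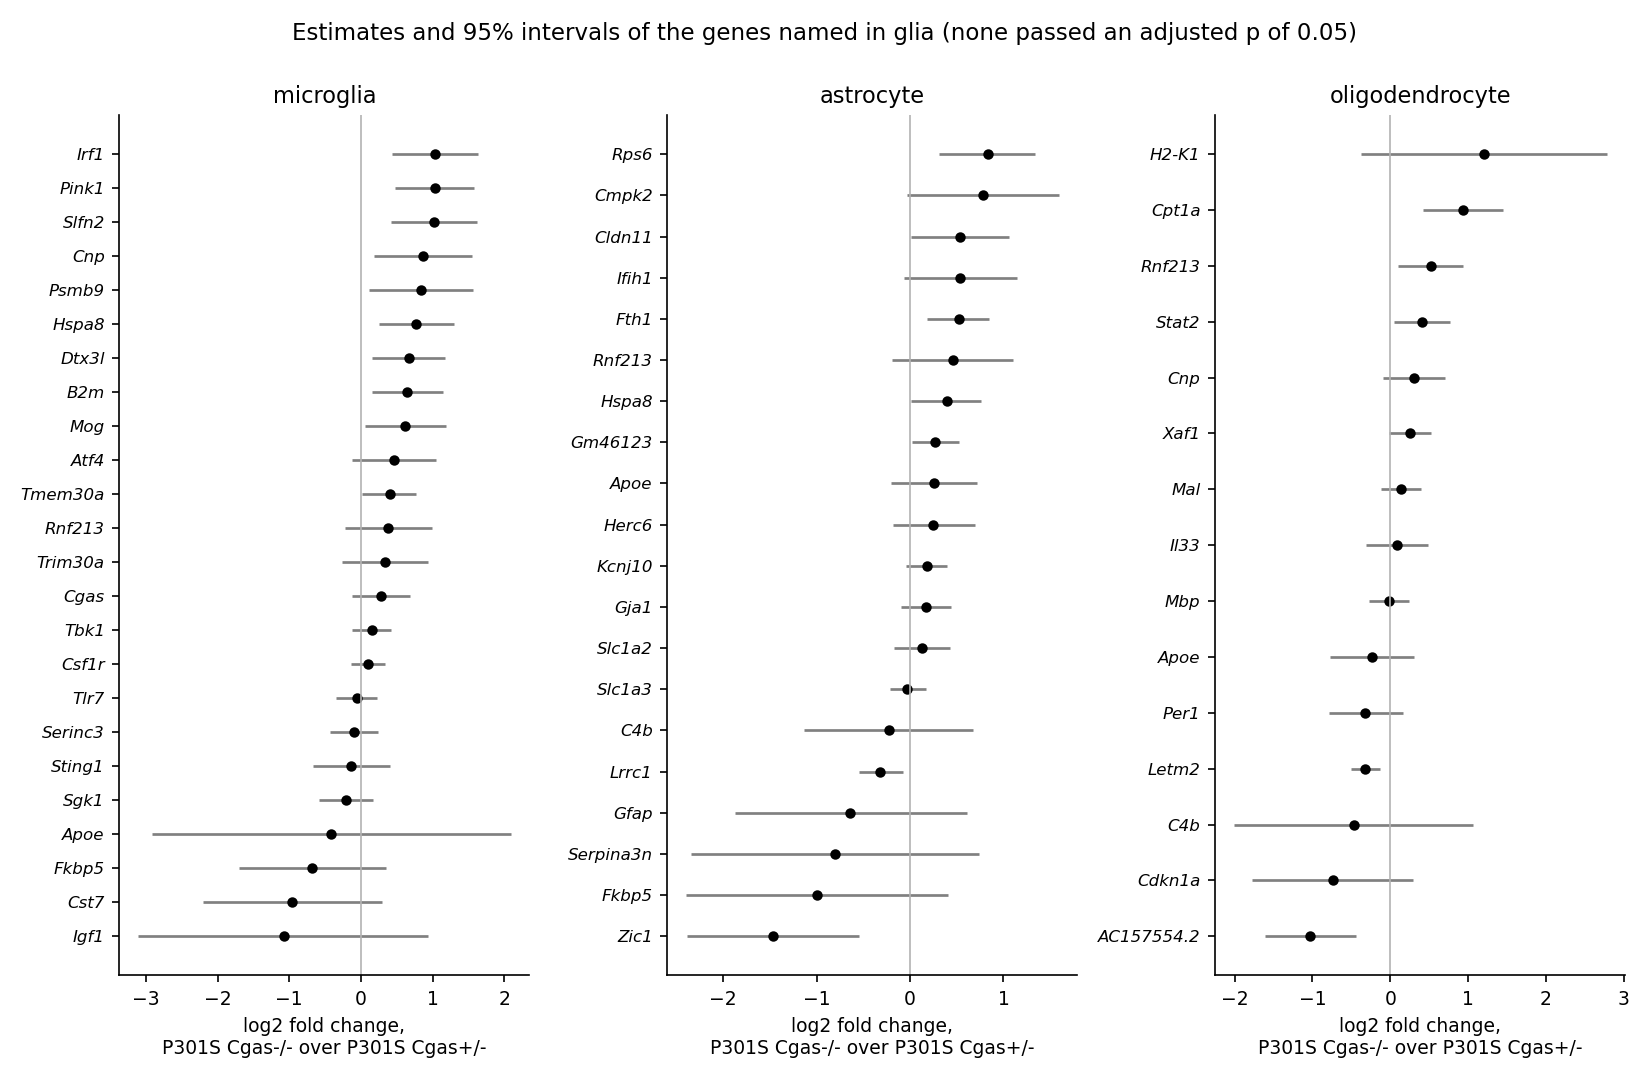
Log2 fold change of P301S Cgas-/- over P301S Cgas+/- (x axis; axes differ) with its 95% interval from edgeR for the genes named in microglia, astrocytes and oligodendrocytes (y axis), sorted by estimate. None passed an adjusted p of 0.05, and the widest interval among microglial genes, that of Apoe, ran from -2.92 to 2.09.

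Oligodendrocytes wrap axons in myelin and were the most numerous glia. Cpt1a, the enzyme that admits long-chain fatty acids into mitochondria, had the smallest p, with a log2 fold change of 0.93 ± 0.24 (95% interval 0.42 to 1.45), followed by the uncharacterised transcript AC157554.2 (-1.03 ± 0.28, 95% interval -1.61 to -0.44). Letm2, which encodes a protein of the inner mitochondrial membrane, lay between 35.7 and 44.8 CPM (median 40.5) in P301S Cgas-/- and between 45.9 and 56.3 CPM (median 51.1) in P301S Cgas+/- libraries. The groups did not overlap for Letm2 or for AC157554.2, as for 5 of the 11839 genes tested (0.0422%), and Letm2 differed by -0.32 ± 0.089 (95% interval -0.51 to -0.13, adjusted p = 1.0 by edgeR). Myelin genes, the product of this class, were bounded tightly, with 10 of 14 higher, a median of 0.05 and all 14 intervals within ±1. Mbp, the gene of myelin basic protein, lay between 4180 and 5150 CPM (median 4560) and between 3770 and 5480 CPM (median 4720), with the P301S Cgas-/- libraries inside the range of the other group. Its log2 fold change was -0.02 with a 95% interval of -0.27 to 0.24, and Cnp and Mal were at 0.31 ± 0.18 and 0.14 ± 0.12.

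Of 19 interferon-stimulated genes tested in oligodendrocytes, 16 were higher (48.3% over all genes), with a median of 0.52, and 2 had an unadjusted p under 0.05 (1.5% over all genes). These were Rnf213, at 18.5 to 41.7 CPM (median 31.8) against 14.1 to 28.9 CPM (median 21.4), and Stat2, which carries the interferon signal to the nucleus, at 33.7 to 71.9 CPM (median 56.0) against 30.8 to 55.0 CPM (median 38.1). P301S Cgas-/- replicates 2, 3, 4 and 5 lay above all P301S Cgas+/- libraries for Rnf213, and replicates 2, 3 and 5 did for Stat2. The log2 fold changes were 0.52 ± 0.20 (95% interval 0.10 to 0.94) and 0.41 ± 0.17 (95% interval 0.05 to 0.77). Xaf1, an interferon-induced gene of cell death, was at 0.26 ± 0.12. The list median was 0.26 without P301S Cgas-/- replicate 3, or 0.73 without P301S Cgas-/- replicate 1, and 0.17 among males against 0.95 among females. Per library the list mean was 2.99, 4.04, 4.25, 3.55, 3.73 and 2.35 in P301S Cgas-/- and 3.41, 3.53, 3.63, 3.29, 2.29 and 2.26 in P301S Cgas+/- replicates 1 to 6. P301S Cgas-/- replicate 6 and P301S Cgas+/- replicates 5 and 6 lay within the 2.08 to 2.64 of Cgas+/+ libraries without tau. Microglial markers in oligodendrocytes summed to 41.0 to 64.9 CPM (median 55.2) in P301S Cgas-/- and 35.0 to 56.1 CPM (median 51.5) in P301S Cgas+/- libraries, and their part in the result was not tested. Reactive oligodendrocyte genes went in both directions, with 4 of 9 higher and a median of -0.36 that became 0.20 without P301S Cgas+/- replicate 4, or -0.61 without P301S Cgas-/- replicate 5. With depth as a covariate it was 0.12, and 6 of the 9 were higher. C4b lay at 60.2 to 397 CPM (median 144) and 19.4 to 574 CPM (median 169), for a log2 fold change of -0.47 ± 0.69. The MHC class I gene H2-K1 was at 1.2 ± 0.71, the cell cycle inhibitor gene Cdkn1a at -0.74 ± 0.47 and the alarmin gene Il33 at 0.09 ± 0.19. Of 9 glucocorticoid-responsive genes 3 were higher (median -0.32, or 0.08 without P301S Cgas+/- replicate 6, 0.04 among males and -0.62 among females), of 15 clock genes 4 were higher (median -0.02, Per1 at -0.32 ± 0.22), and of 10 heat shock genes 5 were higher (median -0.06).

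In oligodendrocyte progenitors, the dividing cells from which oligodendrocytes arise, Kcnj6 had the smallest p. This gene of a G protein-gated potassium channel lay between 31.6 and 70.3 CPM (median 53.4) in P301S Cgas-/- and between 19.9 and 35.4 CPM (median 28.5) in P301S Cgas+/- libraries. The groups overlapped through P301S Cgas-/- replicates 4 and 6, and the log2 fold change was 0.82 ± 0.21 (95% interval 0.40 to 1.24, adjusted p = 1.0 by edgeR). It was followed by Tbc1d31 (-0.60 ± 0.16) and Magt1 (-0.88 ± 0.25). Of 13 interferon-stimulated genes tested, 11 were higher (48.9% over all genes), with a median of 0.45, which was 0.08 without P301S Cgas-/- replicate 3, or 0.71 without P301S Cgas+/- replicate 2. Among males it was 0.06, with 7 of 13 higher, and among females 0.80, with 9 higher. The ranges of every marker list of other cells overlapped between the groups in progenitors. Excitatory neuron markers summed to 149 CPM or more (median 172) in P301S Cgas-/- and to 112 to 189 CPM (median 131) in P301S Cgas+/- libraries. Microglial markers summed to 46.0 to 90.3 CPM (median 49.9) in P301S Cgas-/- and 28.7 to 74.9 CPM (median 36.3) in P301S Cgas+/- libraries, and T cell markers to 2.44 to 12.7 CPM (median 5.22) and 2.87 to 5.25 CPM (median 3.4), with Cd3e and Cd3g at 0. Their part in the result was not tested. Ddx58, which encodes the RNA sensor RIG-I, was at 0.64 ± 0.19 (95% interval 0.25 to 1.04) and Irf9, the DNA-binding partner of STAT2, at 0.72 ± 0.35 (95% interval 0.01 to 1.42). Ddx58 also belongs to the nucleic acid sensing list, whose 5 tested members were all higher with a median of 0.17 (0.28 without P301S Cgas+/- replicate 4). Of 6 glucocorticoid-responsive genes 1 was higher (median -0.25, or 0.02 without P301S Cgas+/- replicate 6, 0.10 among males and -0.20 among females), of 10 clock genes 5 were higher, with Per2 at -0.33 ± 0.14 (95% interval -0.61 to -0.05), of 6 heat shock genes 4 were higher, and of 6 myelin genes 5 were higher. Apoe was at 0.13 ± 0.10 and Mef2c at -0.24 ± 0.14.

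Mef2c encodes a transcription factor whose targets in neurons the study followed in relation to cGAS. The study reports Mef2c RNA in excitatory and inhibitory neurons, and MEF2C protein in CA1, as higher in P301S Cgas-/- than in P301S Cgas+/+ mice. That contrast is another than the one made here. The study also reports high expression of the gene in microglia. Here Mef2c was examined in each neuronal class. In excitatory neurons it lay between 249 and 789 CPM (median 466) in P301S Cgas-/- and between 318 and 953 CPM (median 505) in P301S Cgas+/- libraries. The groups overlapped almost fully, the log2 fold change was -0.15 with a 95% interval of -0.62 to 0.32, and the exact two-sided permutation p was 0.649. This class pools subclasses with unlike Mef2c levels, and cortical neurons made up 22.9 to 84.8% of its nuclei per library. Makeup and level are therefore not told apart in it. In dentate granule neurons the 11 libraries with enough nuclei lay between 281 and 401 CPM (median 381) and between 350 and 418 CPM (median 369). There the log2 fold change was -0.05 with an interval of -0.24 to 0.13. In inhibitory neurons the values were 557 to 759 CPM (median 653) and 434 to 751 CPM (median 608), with a log2 fold change of 0.16 and an interval of -0.10 to 0.42 (exact permutation p = 0.279). In CA1 11 libraries lay between 34.8 and 115 CPM, and P301S Cgas+/- replicate 1 stood at 564 CPM. That library had 93.0% of its CA1 nuclei in a cluster that held at most 7.74% of them elsewhere, and without it the log2 fold change of -0.82 ± 0.67 became 0.08. Cortical excitatory neurons ranged widely, from 122 to 1180 CPM and from 132 to 1060 CPM, with a log2 fold change of -0.13 ± 0.45.

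**Figure D4:**
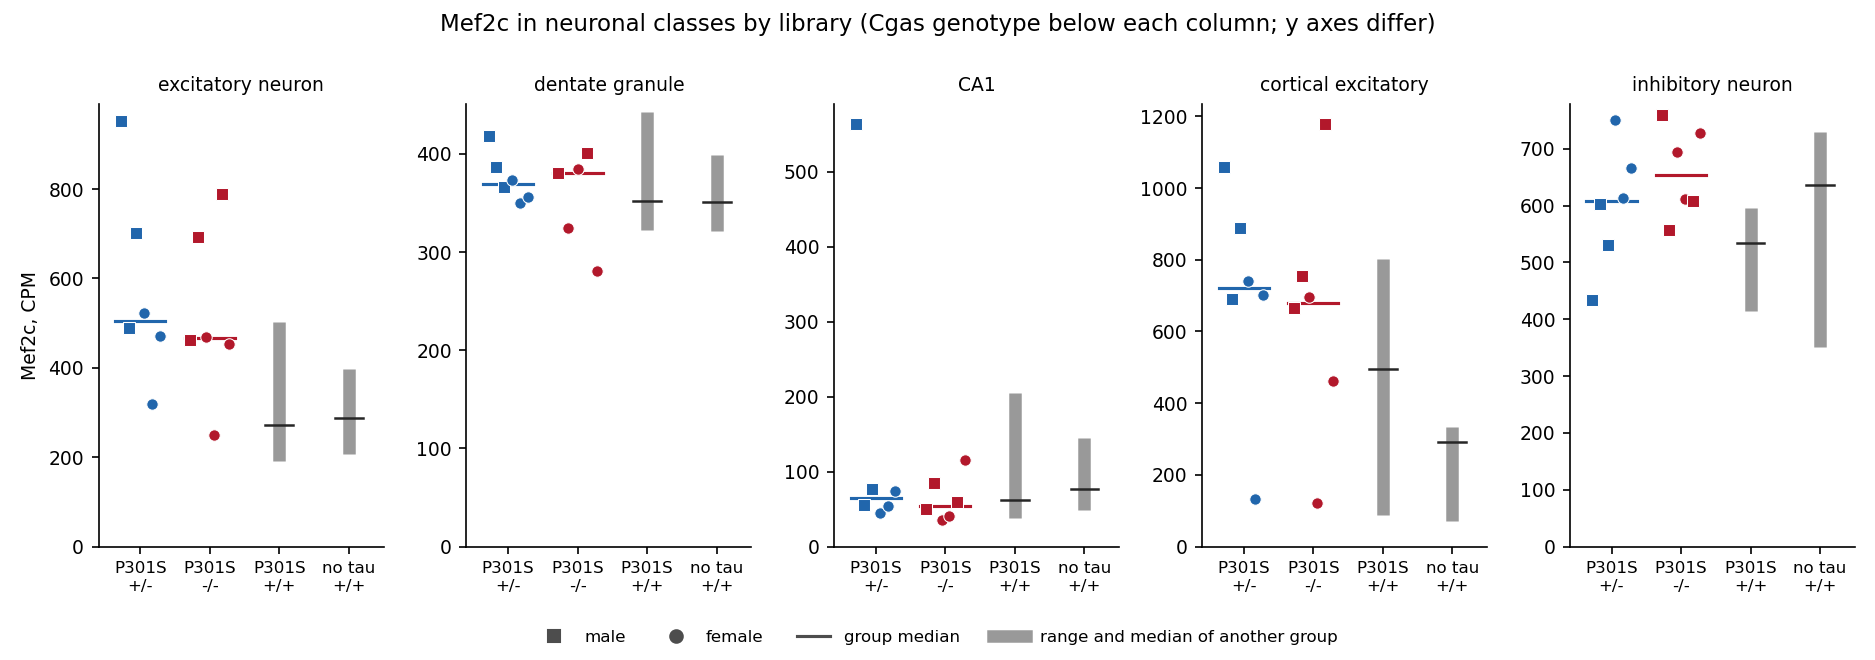
Mef2c level in counts-per-million (CPM, y axis; axes differ, each from 0) per library in 5 neuronal classes, by tau status and Cgas genotype label (x axis), with squares for males, circles for females, coloured lines for medians and grey bars for the range of reference groups. In dentate granule neurons the medians were 381 and 369 CPM, and in CA1 P301S Cgas+/- replicate 1 stood alone at 564 CPM.

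MEF2 genes, Mef2c included, and the class IIa histone deacetylases that bind their products formed a list of 8. In excitatory neurons 3 of 8 were higher (median -0.03), with Hdac9 at 0.18 ± 0.11, in inhibitory neurons 5 of 8 (median 0.04, Mef2a at 0.07 ± 0.093), in CA1 3 of 8 (Hdac9 at 0.30 ± 0.27), in cortical excitatory neurons 4 of 8 (Hdac9 at 0.16 ± 0.15) and in dentate granule neurons 6 of 8 (Hdac9 at 0.27 ± 0.12, 95% interval 0.02 to 0.53). Genes that the study names as higher in excitatory neurons of tau mice without Cgas were taken from these same libraries, so they are no independent evidence of a direction. Between the 2 groups here 11 of 19 were higher in excitatory neurons, with a median of 0.03 and all 19 intervals within ±1. They included the guidance receptor gene Unc5d (-0.24 ± 0.15) and the chromatin organiser gene Satb1 (0.17 ± 0.12). The share was 10 of 19 in CA1 (4 among males, with a median of -0.55, and 17 among females, with 0.31), 12 of 19 in cortical excitatory, 8 of 19 in dentate granule and 9 of 19 in inhibitory neurons. Of the pair named as lower, Epha6 was at 0.25 ± 0.27 and Epha7 at -0.18 ± 0.33 in excitatory neurons, and of 2 members 1 was higher in CA1, 2 in cortical excitatory, 1 in dentate granule and 2 in inhibitory neurons. Of 13 genes that the study names as higher in inhibitory neurons 10 were higher there (median 0.07, Kcnc2 at 0.24 ± 0.18), and 7 without the 2 libraries that stood apart in makeup (median 0.05). The median was 0.02 without P301S Cgas-/- replicate 6, 0.13 without P301S Cgas+/- replicate 3, 0.15 among males and 0.02 among females. Of 5 named as lower 2 were higher (median -0.02, Cacna1e at -0.41 ± 0.21).

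Immediate early genes, which neurons switch on within minutes of activity, varied widely between libraries in excitatory neurons. Of 16 activity-regulated genes 10 were higher (48.5% over all genes), the median was 0.10, and 3 had an unadjusted p under 0.05 (0.841% over all genes). Junb lay between 5.22 and 53.4 CPM (median 16.8) in P301S Cgas-/- and between 4.93 and 10.6 CPM (median 5.78) in P301S Cgas+/- libraries. Egr1 lay between 8.58 and 66.6 CPM (median 25.4) and between 7.90 and 19.3 CPM (median 14.2). For both genes P301S Cgas-/- replicates 2, 3 and 4 stood above all P301S Cgas+/- libraries, and the other 3 lay among them. The log2 fold changes were 1.53 ± 0.52 (95% interval 0.39 to 2.67) and 1.18 ± 0.44 (95% interval 0.22 to 2.14), they were 0.85 and 0.61 without P301S Cgas-/- replicate 2, and Fos was at 1.52 ± 0.66 (95% interval 0.10 to 2.95). The list median was -0.06 without P301S Cgas-/- replicate 3, and without that library it also became negative in CA1 (-0.09, from 0.11) and in cortical excitatory neurons (-0.15, from 0.08). Among males the medians in these 3 classes were -0.07, -0.11 and -0.11, and among females 0.36, 0.36 and 0.31. In CA1 8 of 14 members were higher, with Junb at 1.31 ± 0.61 and Arc at 1.24 ± 0.63, and in cortical excitatory neurons 10 of 16, with Junb at 1.52 ± 0.58 and Egr1 at 1.08 ± 0.45. In dentate granule neurons the sign was mostly negative, with 3 of 13 higher, a median of -0.17 (-0.41 without P301S Cgas-/- replicate 3, or -0.01 without P301S Cgas+/- replicate 2, -0.58 among males and 0.17 among females), Nptx2 at -0.89 ± 0.30 (95% interval -1.52 to -0.26) and Bdnf at -0.41 ± 0.15 (95% interval -0.72 to -0.10). That fit left out P301S Cgas-/- replicate 2, whose list mean in excitatory neurons was 5.32 (group median 4.43). The dentate granule values and those of the other classes are therefore over different libraries. In inhibitory neurons 6 of 13 were higher, with Bdnf at -0.77 ± 0.37 and Nptx2 at -0.83 ± 0.47.

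Receptor genes went in both directions in each neuronal class. In excitatory neurons 10 of 22 glutamate receptor genes were higher (median -0.03), and 21 had intervals within ±1. The NMDA receptor subunit gene Grin2d had the smallest p, at 0.66 ± 0.22 (95% interval 0.18 to 1.14). The counts were 13 of 21 in CA1, 14 of 21 in cortical excitatory, 12 of 21 in dentate granule (Grik3 at 0.26 ± 0.13) and 9 of 21 in inhibitory neurons, where the metabotropic receptor gene Grm4 was at -0.35 ± 0.14 (95% interval -0.64 to -0.06) and Grin3a at 0.18 ± 0.10. For GABA receptor genes they were 7 of 14 in excitatory neurons (Gabrg3 at 0.23 ± 0.16 and Gabbr2 at -0.12 ± 0.12), 11 of 13 in CA1, 7 of 14 in cortical excitatory, 7 of 13 in dentate granule (Gabrg3 at 0.53 ± 0.17, 95% interval 0.17 to 0.88) and 6 of 14 in inhibitory neurons (Gabra2 at -0.38 ± 0.15 and Gabrb2 at 0.17 ± 0.11).

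Voltage-gated and calcium-release channel genes were higher in 11 of 28 cases in excitatory neurons, 19 of 28 in CA1, 17 of 28 in cortical excitatory, 21 of 28 in dentate granule and 9 of 28 in inhibitory neurons, with medians between -0.04 and 0.04. Ryr1, a calcium release channel of the endoplasmic reticulum, was at 0.39 ± 0.16 (95% interval 0.04 to 0.75) in excitatory and 0.61 ± 0.19 (95% interval 0.20 to 1.01) in dentate granule neurons. Synaptic adhesion genes were higher in 12 of 20 cases in excitatory neurons, with all 20 intervals within ±1, in 15 of 20 in CA1, 11 of 20 in cortical excitatory, 12 of 20 in dentate granule and 10 of 20 in inhibitory neurons. Among them Tenm2, a teneurin gene, and Lrrc4c, a netrin-G ligand gene, were at 0.15 ± 0.14 and 0.18 ± 0.14 in excitatory neurons. Mapt, the endogenous tau gene, lay between 463 and 611 CPM (median 540) in P301S Cgas-/- and between 492 and 632 CPM (median 534) in P301S Cgas+/- excitatory neurons. The libraries were interleaved, and the log2 fold change was -0.02 with a 95% interval of -0.21 to 0.17. With the kinases that phosphorylate tau, 3 of 11 genes of that list were higher in excitatory neurons, CA1 and cortical excitatory neurons alike, 8 of 11 in dentate granule and 5 of 11 in inhibitory neurons, and all 11 intervals lay within ±1 in each class.

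The genes with the smallest p in neurons belonged mostly to no list. In excitatory neurons they were the poorly characterised transcripts Gm10248 (1.05 ± 0.27), Gm36445 (-1.07 ± 0.30) and 0610005C13Rik (-1.04 ± 0.30), each below 6 CPM. In inhibitory neurons Cnih3, an auxiliary subunit of AMPA receptors, lay between 19.1 and 31.7 CPM (median 22.9) in P301S Cgas-/- and between 24.8 and 46.9 CPM (median 36.0) in P301S Cgas+/- libraries. Rgs20, a regulator of G protein signalling, lay between 52.7 and 64.7 CPM (median 61.4) and between 71.3 and 104 CPM (median 76.0), so that its groups did not overlap, as for 5 of 12137 genes (0.0412%). The log2 fold changes were -0.52 ± 0.11 (95% interval -0.76 to -0.28) and -0.40 ± 0.10 (95% interval -0.61 to -0.18), with adjusted p = 1.0 each by edgeR. The makeup of the inhibitory class varied between libraries. Cluster 9, with Vip and Adarb2 among its leading genes, held 25.9 to 41.3% (median 35.2%) of the inhibitory nuclei per P301S Cgas-/- library and 9.84 to 38.5% (median 30.6%) per P301S Cgas+/- library. Cluster 13, led by Ebf2, held 0 to 14.7% (median 5.74%) and 1.04 to 63.1% (median 10.6%), with 63.1% in P301S Cgas+/- replicate 1, 31.2% in replicate 2 and at most 2.76% in replicates 4 to 6. Over pooled nuclei cluster 9 was the largest in P301S Cgas-/- (33.0%) and cluster 13 in P301S Cgas+/- libraries (29.3%). With coarser clusters, where striatal and some inhibitory nuclei fell into 1 cluster left unnamed, the log2 fold changes became -0.31 for Cnih3 and -0.22 for Rgs20. The antisense transcript Scpep1os followed at -0.81 ± 0.21, and Lzts1, Nrg1 and Bhlhe40 stood at -0.71 ± 0.30, -0.45 ± 0.21 and -0.62 ± 0.29.

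In CA1 the smallest p values were those of Gm46323 (1.24 ± 0.35), Creb5 (1.43 ± 0.41) and Ftl1 (0.78 ± 0.24), the ferritin light chain gene. CA1 markers in this class summed to 988 CPM in P301S Cgas+/- replicate 1, the lowest of the 12 libraries. Inhibitory neuron markers there summed to 311 CPM, the highest. Values of these genes and of most CA1 lists without that library are not given here. In cortical excitatory neurons the smallest p values were those of Rerg (-1.04 ± 0.23, 95% interval -1.53 to -0.56), F13a1 (1.11 ± 0.25, 95% interval 0.58 to 1.64) and 1700029H14Rik (-0.89 ± 0.26). F13a1, a coagulation factor gene better known from macrophages, lay between 1.42 and 3.24 CPM (median 2.27) in P301S Cgas-/- and between 0.678 and 1.27 CPM (median 0.973) in P301S Cgas+/- libraries. Its groups did not overlap, as for 4 of 14171 genes tested (0.0282%), and the gene held 219 UMIs over the 12 libraries. Macrophage markers, F13a1 among them, summed to 2.5 to 4.51 CPM (median 3.39) in P301S Cgas-/- and 1.63 to 2.81 CPM (median 1.88) in P301S Cgas+/- cortical excitatory neurons. The 5 macrophage markers other than F13a1 summed to 0.983 to 1.42 CPM (median 1.27) and 0.612 to 1.87 CPM (median 1.01), from 82 and 83 UMIs. Of 10 heat shock genes 7 were higher in excitatory neurons (median 0.14, or 0.03 without P301S Cgas-/- replicate 2, Hspa8 at 0.42 ± 0.18 and Hsp90aa1 at 0.27 ± 0.16), 5 of 8 in CA1 (Hspa8 at 0.56 ± 0.21), 7 of 10 in cortical excitatory, 4 of 9 in dentate granule and 5 of 9 in inhibitory neurons. Clock genes were higher in 9 of 15, 5 of 15, 8 of 15, 6 of 15 and 6 of 15 cases in the same order, and glucocorticoid-responsive genes in 6 of 8, 4 of 6, 5 of 8, 3 of 6 and 2 of 6 cases.

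Dentate granule neurons, the input layer of the hippocampus, were tested over 11 libraries, a test chosen after the nuclei had been counted. The smallest p values were those of Ppp1r21 (-0.47 ± 0.11, 95% interval -0.69 to -0.24), an endosomal protein gene, Rnf213 (1.35 ± 0.32, 95% interval 0.69 to 2.01) and A230006K03Rik (0.49 ± 0.12, 95% interval 0.24 to 0.75), with adjusted p = 1.0 each by edgeR. Rnf213, the 1 interferon-stimulated gene among them, lay between 3.73 and 7.23 CPM (median 6.19) in P301S Cgas-/- and between 0.845 and 6.21 CPM (median 1.84) in P301S Cgas+/- libraries. Only P301S Cgas+/- replicates 1 and 2 reached the level of the other group. Of 13 interferon-stimulated genes tested 11 were higher (53.1% over all genes), the median was 0.42, and 5 had an unadjusted p under 0.05 (1.78% over all genes). They included, beside Rnf213, Ifit1 (2.27 ± 0.61, 95% interval 0.97 to 3.56), Ddx60 (1.24 ± 0.41) and Eif2ak2 (1.39 ± 0.48), the kinase that stops translation on viral RNA. Ifit1, Ddx60 and Eif2ak2 averaged at most 3.71 CPM. The list median ranged from 0.28 without P301S Cgas+/- replicate 5 to 0.57 without P301S Cgas-/- replicate 1, and was 0.18 among males and 0.85 among females. Microglial markers in these neurons summed to 19.9 to 45.8 CPM in P301S Cgas-/- and 21.0 to 49.7 CPM in P301S Cgas+/- libraries. Macrophage markers summed to 2.16 to 8.83 CPM (median 4.25) and 0.734 to 4.14 CPM (median 2.8), with Pf4 at 0, and to 0.882 to 3.21 CPM (median 1.24) and 0 to 1.14 CPM (median 0.901) when F13a1 was left out. Their part in the result was not tested. Nrg1 (-0.31 ± 0.095, 95% interval -0.50 to -0.11) and Lzts1 (0.39 ± 0.14, 95% interval 0.10 to 0.68), of the genes the study names for excitatory neurons, had opposite signs.

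The interferon list had 21 of 30 members higher in excitatory neurons (48.5% over all genes; median 0.12), 12 of 21 in cortical excitatory (52.6% over all genes; median 0.04), 8 of 14 in inhibitory (48.8% over all genes; median 0.08) and 13 of 16 in CA1 (53.6% over all genes; median 0.19). Without P301S Cgas-/- replicate 3 the cortical excitatory median was -0.07, and without P301S Cgas-/- replicate 2 the inhibitory median was -0.06. The CA1 median was 0.38 among males and -0.03 among females, and it was -0.19 without P301S Cgas-/- replicate 2 and -0.22 without the 2 libraries that stood apart in makeup. In microglia, astrocytes, oligodendrocytes, progenitors and dentate granule neurons it was 0.37, 0.37, 0.50, 0.40 and 0.46 without those 2 libraries. Myelin RNA was higher in 13 of 14 cases in excitatory, 9 of 10 in CA1, 13 of 14 in cortical excitatory and 9 of 11 in inhibitory neurons, with medians of 0.22, 0.25, 0.16 and 0.10.

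**Figure D5:**
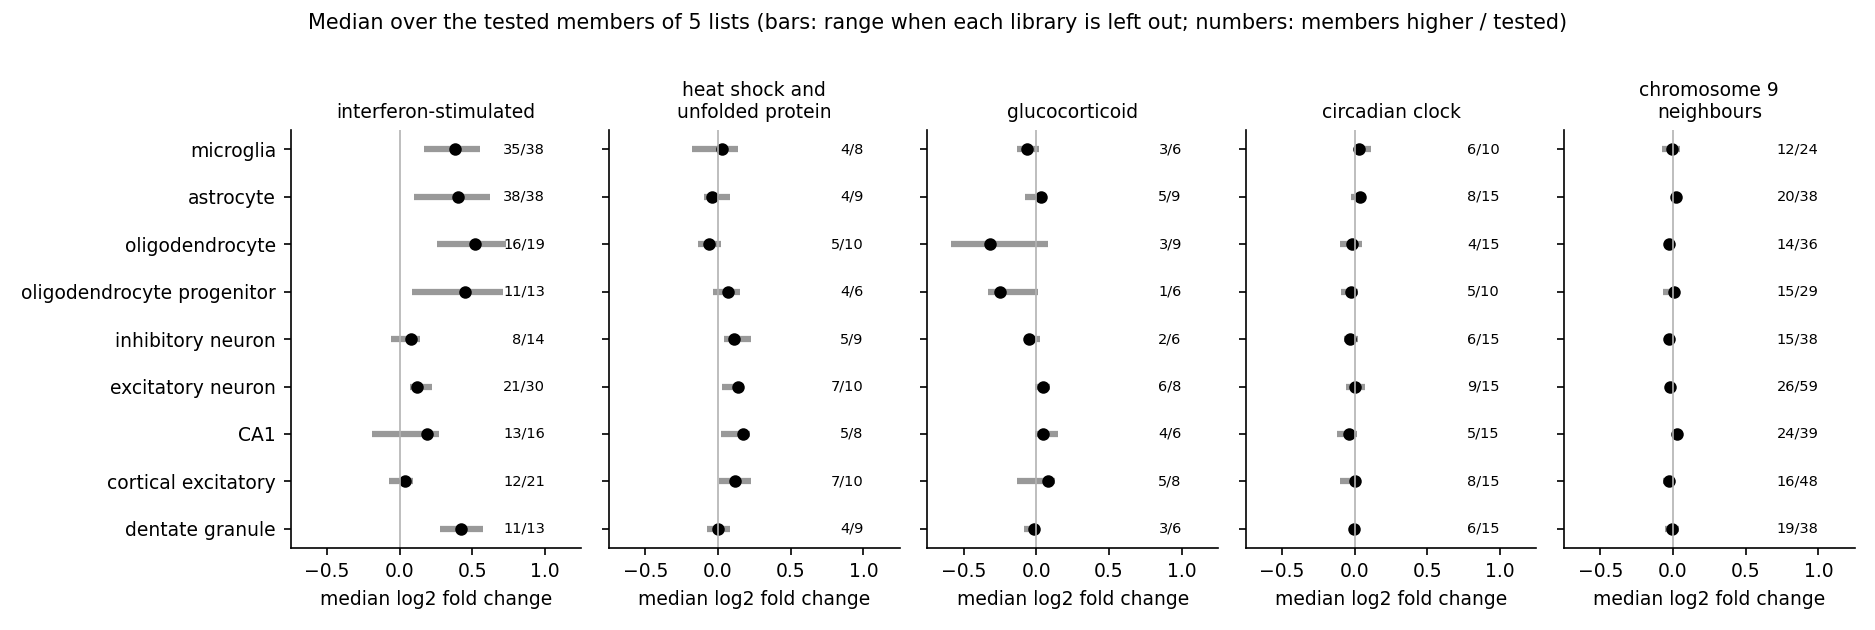
Median log2 fold change of P301S Cgas-/- over P301S Cgas+/- (x axis) over the tested members of 5 gene lists in 9 classes (y axis), with grey bars for its range when each library is left out in turn and the number of members higher over the number tested. The interferon-stimulated median was 0.38 in microglia and 0.52 in oligodendrocytes, while chromosome 9 neighbours of Cgas stayed near 0 in each class, and none of the members was called.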

How the data were processed

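Nuclei from frozen hippocampi were sorted on DAPI and profiled with the 10x 3′ v3 kit. The authors deposited filtered gene by barcode UMI counts per library, whole numbers that are not normalized, made with Cell Ranger (3.1.0 in the submitters' processing notes, 3.0.2 or 3.1.0 in the matrix headers) on mm10 with introns counted. Both versions were spread evenly over the groups but not over the sexes. All libraries with 3.0.2 in the header were from males, and all those from females had 3.1.0. Values by sex cannot be fully told apart from the version. Of 105293 barcodes in the 12 libraries, 94501 had 200 to 4000 genes and at most 5% mitochondrial UMIs, a limit that dropped 3.17 to 22.2% of barcodes per library for holding more than 4000 genes. Scrublet scores then marked 6755 likely doublets (0.8% per 1000 barcodes), which were clustered with the rest and removed before UMIs were summed. At most 36 barcodes (0.557%) were shared by any of the 66 pairs of libraries. The labelled sex fitted the sex-linked transcripts in all 12 libraries.

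Nuclei of all 27 libraries within these limits, likely doublets included, were clustered with scanpy 1.11.5 (2000 variable genes, 30 components, 15 neighbours, Leiden resolution 1). Of 63 clusters 56 were named by marker genes and 7 were left unnamed. The study tested single nuclei. Here UMIs were summed per library and class and tested in R 4.3.3 by quasi-likelihood in edgeR 4.0.16 (TMM, filterByExpr, sex as covariate, Benjamini-Hochberg threshold 0.05), so that the mouse is the replicate. The code was tested on simulated data. Fold changes are on the log2 scale, intervals are 95%, and CPM means counts-per-million of the class total in a library. Levels of single genes, shares of nuclei and depth were compared with exact two-sided permutation tests, the levels as log2(CPM + 1). Whether libraries of a group came from separate litters is not given in the sources used here. The class totals per library were 0.33 M to 1.28 M UMIs in microglia and 20.97 M to 40.35 M in excitatory neurons. A class needed 20 nuclei in each library to be tested, except that dentate granule neurons were fitted without the 1 library that had 16. The permutation test of Mef2c in dentate granule neurons, 1 of the 8 single-gene tests, kept that library.

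Alternatives were another scaling (RLE), no filter, DESeq2 1.42.0, no sex covariate, 23 libraries in 1 fit, a depth covariate, doublets kept, coarser clusters (resolution 0.5), a pseudocount of 5 CPM, and each library left out. After the data were seen, the software version as covariate, a fit without P301S Cgas+/- replicate 1 and P301S Cgas-/- replicate 2, and the 11-library dentate granule fit were added. The groups and gene lists were chosen with earlier results of these data known. Genes named are the 3 with the smallest p per class, the 2 with the smallest p and the 2 with the highest CPM per list, up to 3 neighbours of Cgas within 5 Mb with the smallest p, and Cgas, Sting1, Mef2c, Apoe and Nnt throughout. Some genes that this rule names are not reported here. Members behind a count of 5 or fewer, and genes called in an alternative, were named after their values were seen.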

Additional observations from a re-analysis of the deposited data

Results flagged for a closer look

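In each group of 6 libraries the highest and lowest values were compared with the rest by Dixon's ratio, at its 95% critical value. Chance alone passes it in about 1 in 20 groups, and 9 values did so. Depth, shares of nuclei, levels of selected genes and list means were compared in this way. The number of groups is not given here, so the 9 values are not set against that rate.

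Depth had 2 of them. P301S Cgas-/- replicate 6 held 51.6 M UMIs in its kept nuclei, and the other P301S Cgas-/- libraries held 37.6 M to 42.2 M. P301S Cgas-/- replicate 3 had a median of 7080 UMIs per nucleus, and the others had 3770 to 4790.

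The share of nuclei in minor classes had 4. Striatal neuron-like nuclei made up 14.6% of P301S Cgas+/- replicate 1, against 0.0105 to 0.253% in the rest of its group, and 0.284% of P301S Cgas-/- replicate 2, against 0 to 0.0967%. Choroid plexus-like nuclei made up 0.601% of P301S Cgas-/- replicate 4, against 0 to 0.221%, and fibroblast-like nuclei 2.37% of P301S Cgas+/- replicate 3, against 0 to 0.406%.

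Among the selected genes, the levels of 3 passed it as well. Fkbp5 in microglia, described above, was not among the genes compared. Apoe in microglia was at 3570 CPM in P301S Cgas+/- replicate 4 and at 90.8 to 1290 CPM in the rest of the group. P301S Cgas+/- replicate 1 had 564 CPM of Mef2c in CA1, against 44.5 to 77.4 CPM, and 104 CPM of Rgs20 in inhibitory neurons, against 71.3 to 78.8 CPM. The causes were not tested.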

How the results depend on the processing

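The absence of calls held under every alternative run for the filtered tests other than the within-female fits given above. Without the filter on low counts edgeR called 15 genes in microglia (Igf1 at -1.10 and Fkbp5 at -0.66 among them), 1 in progenitors and 48 in dentate granule neurons (Rnf213 at 1.34, A230006K03Rik at 0.47, Ifit1 at 2.27, Eif2ak2 at 1.38, Gabrg3 at 0.51 and Ryr1 at 0.59 among them), and the interaction with sex called 4, 4 and 36, and 5 in inhibitory neurons. The cause was not tested. Of the log2 fold changes of named genes under the alternatives, 2947 kept their sign and their side of the threshold, 27 changed sign and 8 passed the threshold only in the alternative, those given above for the test without the filter.

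With depth as a covariate Apoe in microglia was at 0.28, C4b at 0.10 in astrocytes and 0.09 in oligodendrocytes, and Mbp in oligodendrocytes at 0.00. Mef2c in CA1 was at 0.00 with coarser clusters and at 0.03 without the 2 libraries that stood apart in makeup. Differences in share changed sign in astrocytes with doublets kept (0.136 percentage points) and, with coarser clusters, in inhibitory neurons (0.441) and unnamed nuclei (-3.98).

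When each library was left out in turn, signs changed within these ranges of differences in share, in percentage points: excitatory -3.35 to 1.37, astrocyte -0.771 to 0.836, microglia -0.101 to 1.01, endothelial -0.00403 to 0.156, ependymal -0.084 to 0.0407, fibroblast -0.22 to 0.254, striatal neuron -2.91 to 0.00355 and unnamed -0.0187 to 0.831, and, as shares of excitatory nuclei, CA1 -0.381 to 3.79 and cortical -8.21 to 4.16. Differences in log2(CPM + 1) ranged from -0.24 to 0.11 for Sting1 and -0.20 to 0.85 for Apoe in microglia, and for Mef2c from -0.31 to 0.04 in excitatory and -0.09 to 0.01 in dentate granule neurons, the latter with P301S Cgas-/- replicate 2 and its 16 nuclei included, and -0.09 without it. Log2 fold changes ranged from -0.99 to 1.16 (Apoe) and -0.15 to 0.01 (Tlr7) in microglia, -1.08 to 0.02 (Serpina3n), -0.88 to 0.18 (Gfap), -0.42 to 0.24 (C4b) and -0.06 to 0.01 (Slc1a3) in astrocytes, -0.36 to 0.01 (Apoe), -0.08 to 0.06 (Mbp), -0.04 to 0.20 (Il33) and -0.68 to 0.53 (C4b) in oligodendrocytes, -0.05 to 0.04 (Mapt) in excitatory neurons, and for Mef2c from -1.29 to 0.08 in CA1 and -0.33 to 0.08 in cortical excitatory neurons.

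No paired analysis was possible because the labels link no mice between the groups. The replicate numbers used here only count the libraries within each group. The lowest class total in a library was 0.33 M UMIs in microglia, 0.61 M in progenitors, 1.34 M in CA1 and 0.24 M in dentate granule neurons (0.17 M in the library left out of its tests), which limits low genes.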

Other observations

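Gm12576 and Cfap54 fell into separate ranges across the 27 libraries of the series. In excitatory neurons Gm12576 was at 0 to 0.0814 CPM (0 to 3 UMIs) in 8 libraries and at 3.6 to 15.8 CPM (80 to 438 UMIs) in the other 19, with none between. The low range held 1 P301S Cgas-/- library, 4 P301S Cgas+/- libraries and 3 of other genotypes, spread over 5 of the 6 groups of the series, and the high range held 5, 2 and 12. In dentate granule neurons Cfap54 was at 17.8 to 36.7 CPM in 6 libraries (3 to 302 UMIs), 131 to 165 CPM in 11 (39 to 1533 UMIs) and 229 to 300.0 CPM in 10 (185 to 2475 UMIs). P301S Cgas-/- libraries numbered 1, 2 and 3 in these ranges and P301S Cgas+/- libraries 2, 4 and 0. The P301S Cgas-/- library in the lowest range was replicate 2, placed there by 3 UMIs from 16 nuclei, and the 39 UMIs were those of P301S Cgas+/- replicate 1. Where the ranges come from was not tested.

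Within the 2 groups neuronal activity genes stood highest in P301S Cgas-/- replicates 2 and 3. The mean log2(CPM + 1) of the list was 5.32 and 5.63 in excitatory neurons, against 3.96 to 4.75 in the other 10 libraries. P301S Cgas+/+ libraries spanned 3.68 to 5.12.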
